A study of Mus musculus with 5 samples.

Results

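The genes described here build, modify and hold together the extracellular matrix. The set was a named list of 39 genes for basement membrane and fibrillar matrix proteins, collagen-modifying enzymes, matricellular proteins and proteinase inhibitors, out of 54838 genes listed in the deposited files. Each was matched through its Ensembl identifier in GENCODE M21. RNA came from N2a cells, a mouse neuroblastoma line, transfected with control siRNA in 2 libraries (siCtrl) and with Ewsr1 siRNA in 3 (siEwsr1). Both groups went through the same repeated lipid transfection and were collected 24 hours after its final round, and total RNA was sequenced after ribosomal RNA had been removed. The siRNA concentration is labelled as 100 µM for both groups. A single cell line was used, and nothing in the labels says that replicates were separate cultures, so the p-values reflect only how far these libraries lie apart, part of which may be technical.

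Basement membranes are thin sheets of matrix in which a laminin network and a type IV collagen network are joined by nidogens and heparan sulfate proteoglycans. Collagen chains are hydroxylated on proline and lysine in the endoplasmic reticulum, fold into triple helices with the help of a dedicated chaperone, and are crosslinked outside the cell by lysyl oxidases. Neural crest derivatives, the lineage of neuroblastoma, migrate and grow on such matrices. Ewsr1, the targeted gene, encodes an RNA-binding protein.

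Between 15045774 and 21339459 reads were counted per library. Levels are RPKM, reads scaled to the exonic length and to the counted reads of the library; the deposited values of 1 or more had lost their decimal point, which was restored before use. The Ewsr1 level, which checks the labels, was 71.7 and 72.3 RPKM under siCtrl, against 35.7, 36.3 and 37.6 RPKM under siEwsr1. In some library the decimal point restored for Ewsr1 was not the lowest that gave whole reads. On the first principal component of all tested genes (45.4% of variance) siCtrl replicates scored -21.2 and -28.7, and siEwsr1 replicates 1 to 3 scored 16.6, 33.7 and -0.368, so siEwsr1 replicate 3 stood nearest to the controls. Where leaving that library out changed the call of a gene on the list, the value without it is given too. That fit called 12.7% of all tested genes lower, against 2.71% with all 5 libraries. Calls lost when another library was left out are given for the list as a whole. Known markers of the line were present: 15 of 18 neuroblast markers passed the filter on low reads, with Chgb at 348 and 328 RPKM under siCtrl.

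Of the 39 genes, 26 had enough reads to be tested (10 reads or more, at median depth, in 2 or more libraries). A gene was called when limma's adjusted p over all 14851 tested genes was under 0.05. With the variance trend placed on mean reads, 9 of the 26 fell in siEwsr1, where 2.71% of all tested genes did, and 0 rose, where 2.46% of all tested genes did. With the trend placed on mean RPKM the same test called 3 of the 26, all lower (0.963% of all tested genes): Lamc1, Sparc and Serpinh1. The first setting was kept after the calls under both had been seen, so the 6 genes that only it calls (Col4a1, Col4a2, Lama4, Fbln2, Timp2 and P4ha2) depend on that choice. The 9 genes encode both abundant type IV collagen chains, 2 laminin chains, a fibulin, the matricellular protein Sparc, a metalloproteinase inhibitor, the collagen chaperone and a prolyl hydroxylase. In bulk RNA, fewer cells that make a transcript and less of it per cell cannot be told apart.

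The median log2 fold change of the 26 genes was -0.37, against -0.01 over all tested genes. By library, the median log2 difference from the control mean was -0.47, -0.46 and -0.28 in siEwsr1 replicates 1, 2 and 3, so it had the same sign in each. All siEwsr1 libraries lay below both siCtrl libraries in 16 of the 26 genes (21.4% of all tested genes), above both in 2 (18.6% of all tested genes), and the groups overlapped in the other 8. Thbs1, among the 16, passed the filter on low reads only through siCtrl, where it was higher, so the filter favoured its direction. The medians above include it too. At an unadjusted p under 0.05 limma found 14 of the 26 lower and 0 higher. Of all 14851 tested genes, 3281 passed that threshold in either direction, of which 1625 were lower (10.9% of all tested genes). Without siEwsr1 replicate 3, 15 of 24 tested members were called lower, where 12.7% of 14502 genes were. Calls across all genes also needed both controls: without siCtrl replicate 1, 0 members and 0.0206% of all tested genes were called lower, and without siCtrl replicate 2, 0 members and 0.0139%. Without siEwsr1 replicate 1, 2 members were called lower, Lamc1 and Serpinh1, where 0.362% of all tested genes were. Without siEwsr1 replicate 2, 7 of 24 tested members were called lower, where 343 of 14466 genes were, and Col4a2 and Fbln2 lost their calls.

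**Figure D1:**
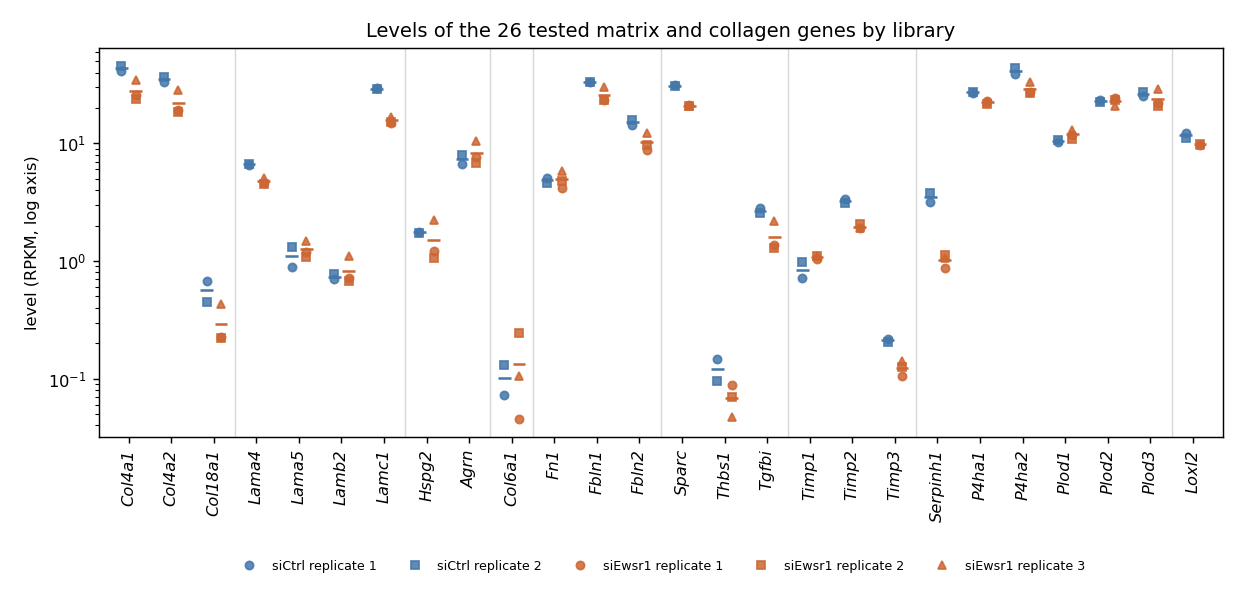
RPKM (log axis) of the 26 tested genes in each of the 5 libraries, with a horizontal line at each group mean; blue is siCtrl, orange is siEwsr1, and marker shape gives the replicate. Levels run from 0.0455 RPKM for Col6a1 to 45.9 RPKM for Col4a1, and siEwsr1 replicate 3 (triangle) lies nearer to the controls than the other siEwsr1 libraries for Col4a1, Col4a2 and Fbln2 but not for Sparc or Timp2.

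Col4a1 and Col4a2 encode the chains of the most widespread type IV collagen, the network former of basement membranes. They lie head to head, with annotated start sites 21 bases apart, and their promoter windows are shown because both genes fell. Each window runs from 250 bases before to 50 bases after the start site, from RefSeq on GRCm38.p6, written 5′ to 3′ on the strand of its own gene. Capitals mark the 78 bases that the windows share, read from opposite strands. The Col4a1 window is chr8:11312777-11313076 on the minus strand and the Col4a2 window is chr8:11312555-11312854 on the plus strand.
Col4a1: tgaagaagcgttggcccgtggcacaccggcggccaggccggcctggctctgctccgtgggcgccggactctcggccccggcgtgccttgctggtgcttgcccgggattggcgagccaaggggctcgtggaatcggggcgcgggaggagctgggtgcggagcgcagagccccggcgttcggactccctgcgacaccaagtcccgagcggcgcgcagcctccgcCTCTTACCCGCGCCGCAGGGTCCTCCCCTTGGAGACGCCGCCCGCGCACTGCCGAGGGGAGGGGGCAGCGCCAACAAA
Col4a2: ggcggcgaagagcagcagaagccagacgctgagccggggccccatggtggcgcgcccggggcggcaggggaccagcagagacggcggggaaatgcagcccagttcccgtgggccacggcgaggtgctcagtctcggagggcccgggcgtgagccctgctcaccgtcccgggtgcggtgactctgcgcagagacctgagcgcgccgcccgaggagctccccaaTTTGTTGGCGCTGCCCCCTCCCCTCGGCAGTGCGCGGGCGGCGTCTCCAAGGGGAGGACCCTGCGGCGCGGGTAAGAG
The windows hold 74% and 73.7% G and C, against a median of 52.7% over all promoter windows of that length, and 37 and 33 CpG dinucleotides against a median of 7.

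Col4a1 (ENSMUSG00000031502, chromosome 8, 11198423 to 11312826, minus strand, GRCm38) stood at 40.9 and 45.9 RPKM under siCtrl and at 25.8, 23.8 and 34.7 RPKM under siEwsr1. The groups did not overlap, and siEwsr1 replicate 3 was the highest of its group. The means were 43.4 ± 3.55 RPKM (SD, n = 2) against 28.1 ± 5.81 RPKM (SD, n = 3). After scaling, Col4a1 fell by 0.62 log2 units (limma adjusted p = 0.0336, SE 0.14). Col4a2 (ENSMUSG00000031503, chromosome 8, 11312805 to 11449287, plus strand) stood at 33.5 and 36.8 RPKM under siCtrl and at 19.3, 18.7 and 28.5 RPKM under siEwsr1. The pattern over libraries was that of Col4a1, with siEwsr1 replicates 1 and 2 lowest and replicate 3 between them and the controls. The Col4a2 means were 35.1 ± 2.33 RPKM (SD, n = 2) against 22.2 ± 5.53 RPKM (SD, n = 3), and the gene fell by 0.66 log2 units (limma adjusted p = 0.0384, SE 0.15). The ratio of Col4a1 to Col4a2 RPKM was 1.22 and 1.25 under siCtrl and 1.34, 1.28 and 1.22 under siEwsr1, so these ranges overlapped. The exons of the pair share 22 bases, and no source used here states whether reads were counted by strand.

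The other type IV chains on the list, Col4a5 and Col4a6, which form a second head-to-head pair on the X chromosome, were listed at 0 in all 5 libraries. Col18a1, whose C-terminal fragment is endostatin, was the third basement membrane collagen with reads. It stood at 0.678 and 0.452 RPKM under siCtrl and at 0.227, 0.220 and 0.432 RPKM under siEwsr1. The highest siEwsr1 library was just under the lower control, and Col18a1 was not called, with a log2 fold change of -0.76 (limma adjusted p = 0.159, SE 0.29). Without siEwsr1 replicate 3 it was -0.995 and was called. Summed over the 3 chains with reads, the level was 75.1 and 83.1 RPKM under siCtrl and 45.3, 42.7 and 63.7 RPKM under siEwsr1.

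Laminins are trimers of an alpha, a beta and a gamma chain. Lamc1, the common gamma chain, had the smallest adjusted p of the 26 genes. Lamc1 (ENSMUSG00000026478, chromosome 1, 153218922 to 153332786, minus strand) stood at 29.5 and 29.05 RPKM under siCtrl and at 15.04, 15.2 and 16.8 RPKM under siEwsr1. The libraries of each group lay close together and far from the other group, siEwsr1 replicate 3 included. The means were 29.3 ± 0.341 RPKM (SD, n = 2) against 15.7 ± 0.965 RPKM (SD, n = 3), and Lamc1 fell by 0.88 log2 units (limma adjusted p = 0.00137, SE 0.086). For Lamc1 the restored decimal point in 1 library was not the lowest that gave whole reads, with odds of 331 for the chosen reading over the next best. The same holds for Sparc (odds 784, 1 library) and Fbln2 (odds 155, 2 libraries). The weighing behind these odds was changed after readings of listed genes had been seen, and under its first form Lamc1 would have been left out. Lama4, an alpha chain known from vessels, muscle and nerve, stood at 6.60 and 6.71 RPKM under siCtrl and at 4.64, 4.52 and 5.11 RPKM under siEwsr1. Lama4 (ENSMUSG00000019846, chromosome 10, 38965515 to 39110188) fell by 0.46 log2 units (limma adjusted p = 0.0232, SE 0.092), from 6.66 ± 0.0838 RPKM (SD, n = 2) to 4.75 ± 0.312 RPKM (SD, n = 3).

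The remaining laminin chains were low. Lama5 stood at 0.897 and 1.32 RPKM under siCtrl and between 1.08 and 1.49 RPKM under siEwsr1, with a log2 fold change of 0.20 (limma adjusted p = 0.553). Lamb2, the only beta chain of the list that was tested, stood at 0.699 and 0.769 RPKM under siCtrl and at 0.721, 0.670 and 1.10 RPKM under siEwsr1, with a log2 fold change of 0.15 (limma adjusted p = 0.740). The groups overlapped for both genes. Lama1 and Lamb1 were above 0 in 1 library each. The ratio of Lamc1 to Lamb2 RPKM was 42.3 and 37.8 under siCtrl and 20.9, 22.7 and 15.3 under siEwsr1, so the gamma chain outnumbered the tested beta chain in RNA in every library. The ratio of Lamc1 to Lama4 RPKM was 4.48 and 4.33 under siCtrl and 3.24, 3.37 and 3.29 under siEwsr1, with no overlap between groups.

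Among the linkers of the basement membrane, neither tested proteoglycan was called. Hspg2, which encodes perlecan, stood at 1.78 and 1.72 RPKM under siCtrl and at 1.22, 1.07 and 2.24 RPKM under siEwsr1, so replicate 3 lay above both controls and the other siEwsr1 libraries below them. Its log2 fold change was -0.25 (limma adjusted p = 0.587), and -0.54 without siEwsr1 replicate 3, a fit in which Hspg2 was called. Agrn, which encodes agrin, the organiser of acetylcholine receptors at the neuromuscular junction, stood at 6.74 and 7.97 RPKM under siCtrl and at 7.62, 6.86 and 10.4 RPKM under siEwsr1, with a log2 fold change of 0.18 (limma adjusted p = 0.534). Nid1, a nidogen that bridges the laminin and collagen networks, had 9 and 8 reads under siCtrl and 1, 0 and 4 reads under siEwsr1 and was not tested. Nid2 was at or under 0.0128 RPKM in every library.

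Genes of fibrillar and microfibrillar collagens were near or at 0 throughout. Col3a1 and Col5a2 were listed at 0 in all libraries, where 3 reads, taken as the floor for counting error, would have given at most 0.0208 RPKM. Col1a1, Col1a2 and Col5a1 had reads in 2 or 3 libraries and stayed at or under 0.0139 RPKM, and Col6a2 was above 0 in 1 library. Only Col6a1, a chain of microfibrillar collagen VI, was tested, at 0.0724 and 0.132 RPKM under siCtrl and 0.0455, 0.246 and 0.105 RPKM under siEwsr1, a spread that crosses both groups.

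Fibulins are calcium-binding glycoproteins that attach to basement membranes and elastic fibres. Fbln2 (ENSMUSG00000064080, chromosome 6, 91212455 to 91272540) stood at 14.4 and 15.9 RPKM under siCtrl and at 8.85, 9.69 and 12.3 RPKM under siEwsr1. Each siEwsr1 library was under both controls, with mean levels of 15.2 ± 1.05 RPKM (SD, n = 2) and 10.3 ± 1.80 RPKM (SD, n = 3). Fbln2 fell by 0.55 log2 units (limma adjusted p = 0.0383, SE 0.13). Fbln1 stood at 33.5 and 33.5 RPKM under siCtrl and at 23.4, 23.5 and 30.01 RPKM under siEwsr1. Its groups did not overlap, and its log2 fold change of -0.37 did not pass (limma adjusted p = 0.0878, SE 0.11). Without siEwsr1 replicate 3 the fold change of Fbln1 was -0.48 and was called. Fn1, fibronectin, stood between 4.19 and 5.83 RPKM in all 5 libraries, with a log2 fold change of 0.03 (limma adjusted p = 0.908, SE 0.13) and overlapping groups.

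Sparc encodes a secreted collagen-binding glycoprotein that also assists the handling of type IV collagen. Sparc (ENSMUSG00000018593, chromosome 11, 55394500 to 55423183, minus strand) stood at 31.4 and 30.5 RPKM under siCtrl and at 21.2, 20.9 and 20.8 RPKM under siEwsr1. The siEwsr1 libraries were nearly equal, with replicate 3 the lowest of them. The means were 31.0 ± 0.695 RPKM (SD, n = 2) against 20.96 ± 0.240 RPKM (SD, n = 3), and the gene fell by 0.54 log2 units (limma adjusted p = 0.00947, SE 0.086). Tgfbi, a TGF-beta-induced adhesion protein, stood at 2.81 and 2.54 RPKM under siCtrl and at 1.36, 1.28 and 2.17 RPKM under siEwsr1. The groups did not overlap, and Tgfbi was not called, with a log2 fold change of -0.72 (limma adjusted p = 0.0914, SE 0.22). In the fit that left out siEwsr1 replicate 3 it stood at -0.94 and was called. Thbs1, thrombospondin 1, was at or under 0.146 RPKM in every library, with a log2 fold change of -0.38 (limma adjusted p = 0.622). It had 14 and 10 reads under siCtrl and 8, 9 and 5 under siEwsr1, and passed the filter through siCtrl alone.

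Of the tissue inhibitors of metalloproteinases, 1 of 3 was called. Timp2, which also takes part in the activation of Mmp2, stood at 3.39 and 3.14 RPKM under siCtrl and at 1.91, 2.07 and 1.91 RPKM under siEwsr1, with a clear gap between groups. Timp2 (ENSMUSG00000017466, chromosome 11, 118301069 to 118355740) went from 3.26 ± 0.172 RPKM (SD, n = 2) to 1.96 ± 0.0917 RPKM (SD, n = 3) and fell by 0.68 log2 units (limma adjusted p = 0.0318, SE 0.15). Timp3, which binds tightly to the matrix, stood at 0.218 and 0.206 RPKM under siCtrl and between 0.106 and 0.141 RPKM under siEwsr1, and was not called (log2 fold change -0.46, limma adjusted p = 0.378). Its exons share 1733 bases (21.3% of its exonic length) with those of Syn3 on the opposite strand. Timp1 stood at 0.714 and 0.976 RPKM under siCtrl and at 1.05, 1.11 and 1.095 RPKM under siEwsr1, all above the controls, with a log2 fold change of 0.36 that did not pass (limma adjusted p = 0.569).

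Serpinh1, which encodes HSP47, the chaperone that binds folded procollagen in the endoplasmic reticulum, had the largest fold change of the 26 genes. Serpinh1 (ENSMUSG00000070436, chromosome 7, 99345376 to 99353239, minus strand) had 122 and 160 reads under siCtrl and 32, 59 and 45 reads under siEwsr1. In RPKM these were 3.17 and 3.78 against 0.871, 1.13 and 1.05, with every siEwsr1 library under every control. The means were 3.48 ± 0.435 RPKM (SD, n = 2) against 1.02 ± 0.134 RPKM (SD, n = 3), and Serpinh1 fell by 1.66 log2 units (limma adjusted p = 0.00322, SE 0.20). Its reads were few, so its counting error is larger than that of Lamc1, which had 1872 to 4160 reads per library. With 1 RPKM instead of 0.1 added before the log, the log2 fold change of Serpinh1 was -1.13.

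Prolyl 4-hydroxylases need an alpha subunit, and Plod enzymes hydroxylate lysine. P4ha2 (ENSMUSG00000018906, chromosome 11, 54100095 to 54131665) stood at 39.0 and 43.8 RPKM under siCtrl and at 27.3, 26.9 and 33.0 RPKM under siEwsr1. Its groups did not overlap, with mean levels of 41.4 ± 3.39 RPKM (SD, n = 2) and 29.05 ± 3.44 RPKM (SD, n = 3), and the gene fell by 0.49 log2 units (limma adjusted p = 0.0276, SE 0.10). P4ha1, the other alpha subunit on the list, stood at 26.8 and 27.5 RPKM under siCtrl and at 23.1, 21.7 and 22.45 RPKM under siEwsr1. These groups did not overlap either, and the log2 fold change of P4ha1 was -0.25 (limma adjusted p = 0.124, SE 0.086). It was also -0.25 without siEwsr1 replicate 3, where P4ha1 was called. The ratio of P4ha2 to P4ha1 RPKM was 1.46 and 1.59 under siCtrl and 1.18, 1.24 and 1.47 under siEwsr1, and the difference between the fold changes was not tested.

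None of the lysyl hydroxylases was called with all 5 libraries. Plod1 stood at 10.2 and 10.6 RPKM under siCtrl and at 11.7, 10.9 and 13.1 RPKM under siEwsr1, all above the controls, with a log2 fold change of 0.21 (limma adjusted p = 0.240). Plod2, which hydroxylates the telopeptide lysines used in crosslinks, stood at 23.3 and 22.3 RPKM under siCtrl and at 24.4, 23.5 and 20.7 RPKM under siEwsr1, with a log2 fold change of 0.02 (limma adjusted p = 0.930, SE 0.10). Plod3 stood at 25.3 and 27.4 RPKM under siCtrl and at 21.9, 20.9 and 28.9 RPKM under siEwsr1, with a log2 fold change of -0.13 (limma adjusted p = 0.577), and of -0.27 without siEwsr1 replicate 3, a fit in which Plod3 was called. Replicate 3 was the lowest siEwsr1 library for Plod2 and the highest for Plod3. Of the crosslinking oxidases, Loxl2 stood at 12.2 and 11.2 RPKM under siCtrl and at 9.70, 9.98 and 9.69 RPKM under siEwsr1, and was not called (log2 fold change -0.23, limma adjusted p = 0.198). Lox was at or under 0.0264 RPKM in every library.

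**Figure D2:**
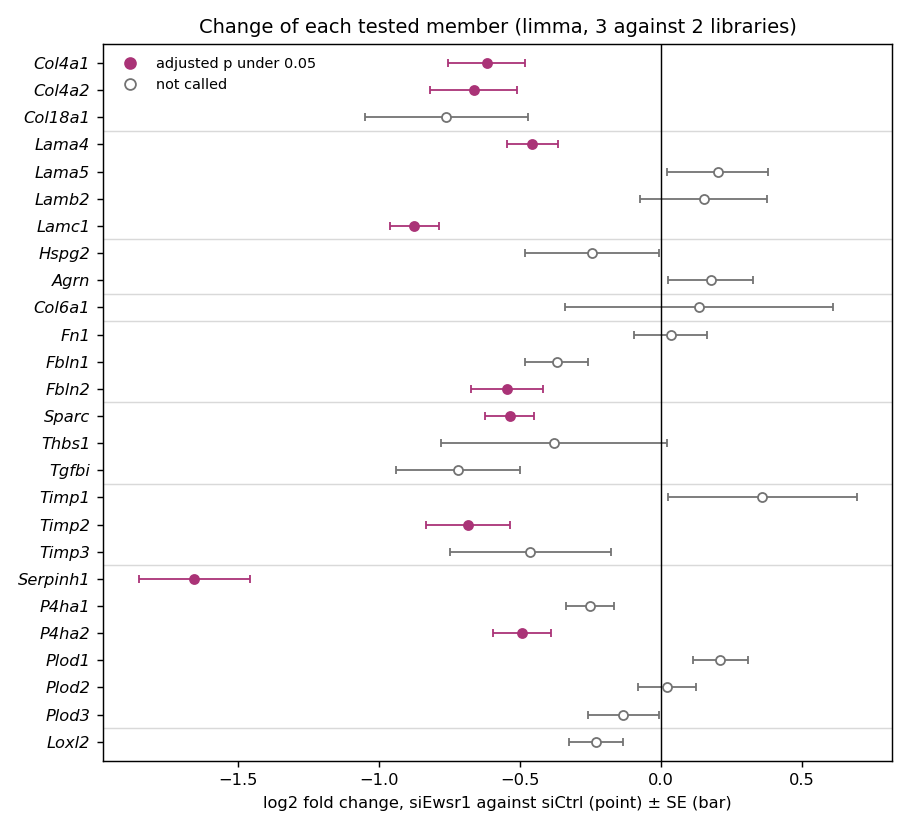
Log2 fold change of siEwsr1 against siCtrl for the 26 tested genes (point) with its standard error (bar), grouped by role from collagens at the top to the oxidase at the bottom; filled points passed an adjusted p under 0.05. The 9 filled points lie between -1.66 (Serpinh1) and -0.46 (Lama4), and none lies above 0.

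**Figure D3:**
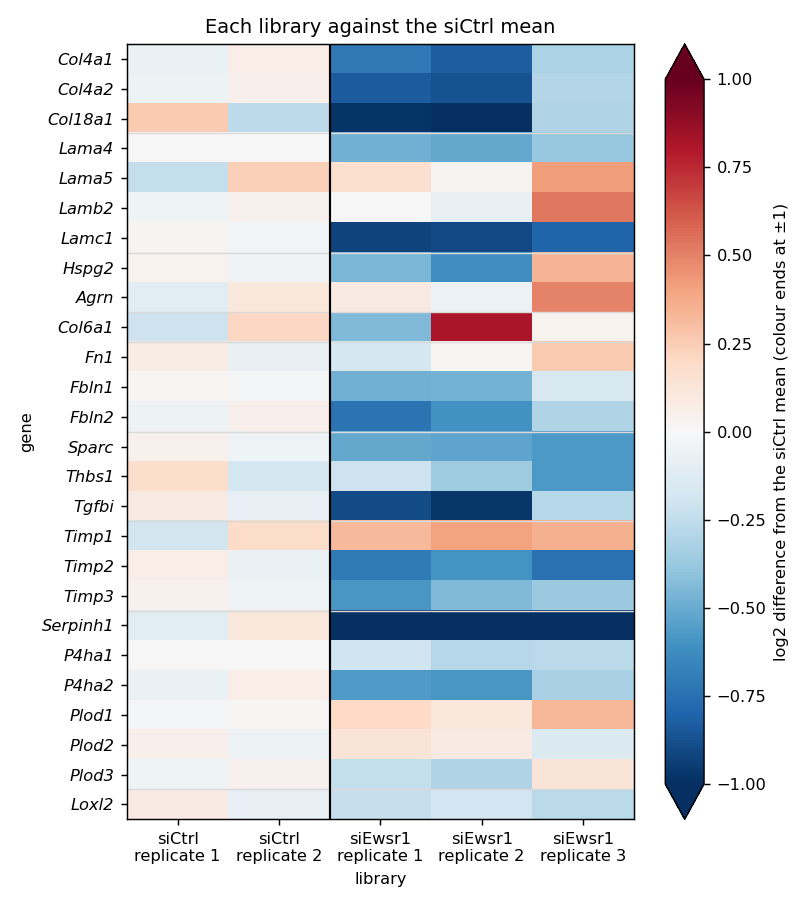
Log2 difference of each library (column) from the siCtrl mean for the 26 tested genes (rows), blue for lower and red for higher, with the colour ending at 1 in either direction. Lamc1, Sparc and Timp2 are blue in all 3 siEwsr1 columns to a like degree, while Hspg2 and Plod3 are blue in replicates 1 and 2 and red in replicate 3. Serpinh1, at -1.85, -1.50 and -1.63, lies beyond the end of the colour, so its differences between replicates do not show.

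The called genes varied in how the siEwsr1 libraries lay to each other. For Col4a1 the log2 differences from the control mean were -0.71, -0.82 and -0.32 in replicates 1, 2 and 3, and for Col4a2 they were -0.83, -0.87 and -0.30. For Sparc they were -0.51, -0.53 and -0.57, and for Timp2 -0.71, -0.60 and -0.74. For Lamc1 they were -0.92, -0.90 and -0.80. No test compared these patterns, which are a description of 3 libraries.

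Collagen messages are textbook targets of the miR-29 family, whose members share a seed (bases 2 to 8, in capitals). The mature sequences are from RefSeq on GRCm38.p6.
mmu-miR-29a-3p: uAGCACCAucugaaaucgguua
mmu-miR-29b-3p: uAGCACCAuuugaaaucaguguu
mmu-miR-29c-3p: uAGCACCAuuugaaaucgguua
A match to this seed, TGGTGCT on the transcript strand, was found in 3 of the 9 genes that fell, within their annotated 3′ UTR, and the stretches around the matches are shown with the match in capitals (GENCODE M21 transcripts, GRCm38). They lie at chr8:11199752-11199778 (minus strand), chr8:11448349-11448375 and chr8:11448520-11448546 (plus strand), and chr1:153220059-153220085 (minus strand).
Col4a1: cgtcacaacaTGGTGCTactccccccc
Col4a2, first match: aaggccacgtTGGTGCTtatccttctg
Col4a2, second match: acacccagctTGGTGCTtactcttaac
Lamc1: tctgacacacTGGTGCTattaattatt
Among all 26 tested genes the match was present in 6 (23.1%), against 15.7% of 11873 tested genes with a 3′ UTR. The other 3 were Agrn, Loxl2 and Plod1, none of which was called. Over those 11873 genes the median log2 fold change was 0.01 with a match and near 0 without. A sequence match is not a measured site, and mature miRNAs were not measured in these libraries.

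To place the list among related genes, 208 other genes of matrix, its receptors and pathways linked to it were taken as companion lists, of which 127 were tested. Of these, 15 fell, where 2.71% of all tested genes did, and 0 rose, where 2.46% did. Their median log2 fold change was -0.18. The counts by list are small, and none was tested against these shares. With the variance trend on mean RPKM only 4 of the 15 were called, Sec24d, Itga8, Itgb3 and Itgb5, so the other 11 calls named here depend on the trend chosen. Among other basement membrane genes 1 of 7 tested fell, Frem1 (-1.26 on the log2 scale), and among other collagens 2 of 12, Col14a1 (-1.17) and Col16a1 (-0.997). The sizes for Frem1, Col14a1 and Col16a1 depend on the 0.1 RPKM added before the log. With 1 added they were -0.26, -0.34 and -0.37, and with 0.01 added -2.21, -1.59 and -1.21. Other sizes given below also shrank with 1 added, among them Fbn1 (-0.34), Colgalt2 (-0.59), Itga2 (-0.61) and Itga8 (-0.75). Of 15 other matrix glycoproteins and proteoglycans 1 fell, Fbn1 (-0.60), which encodes the microfibril protein fibrillin 1. Of 19 genes for collagen folding, modification and secretion 2 fell, the collagen galactosyltransferase Colgalt2 (-0.92) and Sec24d (-0.63), a COPII coat subunit that procollagen export requires. Of 19 proteinases and inhibitors 2 fell, Mmp11 (-0.78) and Adam12 (-0.45).

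Matrix receptors had the most calls of these lists, with 4 of 18 tested genes lower, where 2.71% of all tested genes were. They were the collagen receptor subunit Itga2 (-1.15), Itga8 (-1.12), which pairs with the beta-1 chain, and the vitronectin receptor subunits Itgb3 (-1.22) and Itgb5 (-0.71). Itgb3 stood at 3.56 and 3.51 RPKM under siCtrl and at 1.39, 1.25 and 1.71 RPKM under siEwsr1, with no overlap. Of 21 genes of TGF-beta signalling, a main inducer of matrix genes, 1 fell, the inhibitor Smad6 (-0.65), and the list median was -0.08. Of 16 hypoxia targets, a group that in other cells includes P4ha1, P4ha2 and Plod2, 2 fell, Vegfa (-0.50) and Ddit4 (-0.54), and the list median was -0.03.

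**Figure D4:**
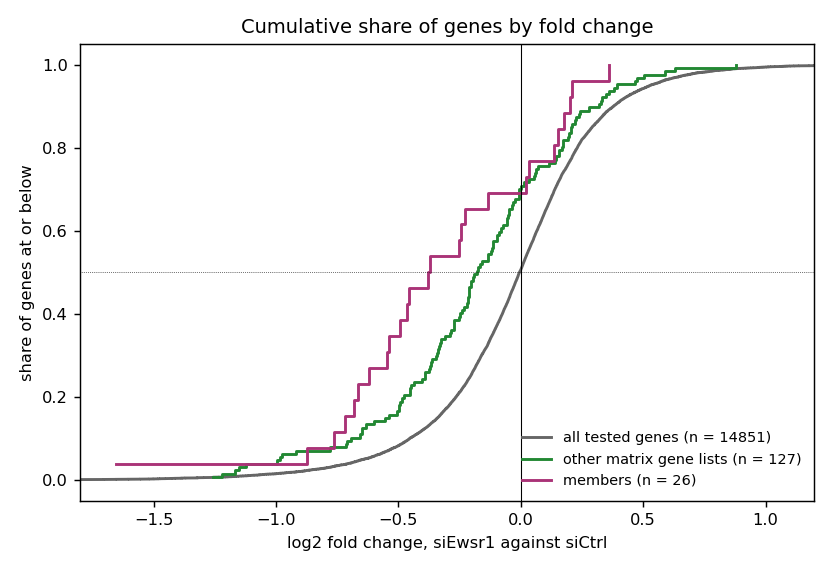
Share of genes (vertical axis) at or below each log2 fold change of siEwsr1 against siCtrl (horizontal axis) for the 26 tested members, the 127 tested genes of the companion lists and all 14851 tested genes. The curves cross the dotted line at 0.5 near their medians of -0.37, -0.18 and -0.01.

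Markers of other cell types were low. Of 14 fibroblast and mural markers 3 were tested, Lum and Twist1 were listed at 0, and the summed level was 3.83 and 3.42 RPKM under siCtrl and 1.38, 1.44 and 1.58 RPKM under siEwsr1. Most of that sum was Acta2, smooth muscle actin, which fell from 2.76 ± 0.182 RPKM (SD, n = 2) to 0.857 ± 0.0692 RPKM (SD, n = 3). Endothelial markers summed to at most 0.740 RPKM in any library, with Kdr, Emcn and Tie1 at 0, Schwann and glial markers to at most 3.16 RPKM, with Sox10, S100b and Foxd3 at 0, and macrophage markers to at most 1.08 RPKM, with Csf1r at 0. Neuroblast markers summed to 1093 and 1111 RPKM under siCtrl and to 1184, 1181 and 1304 RPKM under siEwsr1. Of the 15 tested, 5 rose, among them Isl1, Chgb and Ina, where 2.46% of all tested genes rose. A log2 fold change below 0 was found for 4 of the 15. Whether the marker calls hold with the trend on mean RPKM was not examined. The part of these marker shifts in the lower matrix genes was not tested.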

How the data were processed

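Total RNA from 5 N2a libraries was compared, grouped by their titles. Per the submitters' processing notes, STAR 2.5.2b, featureCounts 1.5.1 and edgeR were used on GRCm38; counting options: not given in the sources used here. Per gene and library, the authors deposited 1 value that behaves as RPKM, with the decimal point missing in values of 1 or more, so its unit was entered as "other". Positions were restored by requiring value × exonic length (GENCODE M21) × counted reads to be a whole number of reads within 1e-06, then weighing the candidates over all libraries, without group labels, by how near the libraries lie to each other. Readings with odds under 20 (185 genes) were left out. The expected spread (0.12, natural log) and the form of the weight were changed after members' readings had been seen; under the first form Lamc1 would have been left out. Fbln1, Sparc, Lamc1, Plod2, Loxl2 and Fbln2, and also Ewsr1, are read above the lowest possible position in some library. Because the weight favours libraries that agree, large changes can be lost or misread. On simulated data for this comparison (14374 genes), 50 genes were changed at each fold. Restoration kept 50, 49, 38 and 33 of them at 1.5-, 2-, 4- and 10-fold. All kept genes changed 1.5-, 2- or 4-fold were read correctly, but only 16 of 33 kept genes changed 10-fold.

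limma 3.58.1 (R 4.3.3) was fitted to log2(RPKM + 0.1) after trimmed-mean scaling (factors 0.984 to 1.02), with a term for group alone, a variance trend, robust moderation and Benjamini-Hochberg adjustment over 14851 genes. Fold changes are on that scale and understate changes of low genes; printed levels are unscaled. The covariate of the trend was not specified in the plan. A first fit, on mean log2 RPKM, called 263 genes and 3 members. After that, 3 covariates were tried with and without robust moderation; fits on mean reads called 764 to 785 genes and 9 members. The trend on log2 mean reads (768 genes) was kept because counting error follows reads, and also because its count was close to that of an earlier analysis of the same data. It was therefore not chosen independently of the result, and both member counts are reported. In simulated data the kept fit called 34 of 48, 40 of 48 and 36 of 36 tested genes changed 1.5-, 2- and 4-fold, out of 50 simulated at each. It called only 15 of 32 tested genes changed 10-fold (median log2 error -3.24), also out of 50, and 5 of 13748 unchanged genes. The simulation gave all genes the same spread beyond counting error, and no library a shift of its own. siEwsr1 replicate 3 stood apart from its group in the real data, so these rates may not hold there.

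The members, companion lists and markers were chosen with earlier results of these data known, so no list was tested as a set. Every called member is given by library, as are the 5 uncalled members with the highest mean RPKM and those with an absolute log2 fold change of 0.5 or more; called companions are named. Some marker genes are not reported here. An exact permutation test of 2 against 3 libraries cannot give p below 0.1. Promoters (28 of 39 members matched) and miRNAs are from RefSeq.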

Additional observations from a re-analysis of the deposited data

How the results depend on the processing

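Under 15 alternatives to the reported fit, 0 members were called higher and the median log2 fold change of tested members stayed below 0, but the number called lower (9) moved widely. A pseudocount of 1 gave 5 members, with 203 genes of all lower and 168 higher, 6 companions lower, and medians of -0.23 for members and -0.11 for companions. Without the filter on low values, where more genes were tested, there were 3 members, 126 genes lower and 79 higher, 3 companions and a member median of -0.26. The variance trend on mean RPKM, added after seeing the data, gave 3 members, 143 genes lower and 120 higher, and 4 companions. With no variance trend and no robust moderation, limma called 0 members, 0 genes in either direction and 0 companions at an adjusted p under 0.05, with 2770 genes at an unadjusted p under 0.05; Ewsr1 kept its log2 fold change of -0.95 at adjusted p = 0.0705 (the largest over its alternatives). Leaving out genes read above their lowest decimal position left 20 members, 6 of them called; Fbln2, Lamc1 and Sparc were not among the genes tested. The cause of the other shifts was not tested.

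Replicate numbers are not tied by the labels, and same-numbered deviations correlated at 0.0332 and -0.125. With the replicate number as a block, siEwsr1 replicate 3 was alone in its block and added nothing to the fold changes beyond scaling. That fit is therefore close to leaving siEwsr1 replicate 3 out, and is not a separate check. It called 14 members, 1575 genes lower, 1593 higher, 36 companions lower and 6 higher, with a member median of -0.49. Lamb2 (-0.037) and Fn1 (-0.077) changed sign. Leaving out 1 library at a time gave 0 to 15 members lower, 2 to 1849 genes lower, 1 to 1848 higher, companions 0 to 41 lower and 0 to 7 higher, member medians of -0.51 to -0.36, companion medians of -0.26 to -0.15 and Ewsr1 at -0.97 to -0.94. Small values changed sign: Lama5 ranged over -0.041 to 0.44, Lamb2 over -0.041 to 0.27, Col6a1 over -0.071 to 0.43, Fn1 over -0.082 to 0.14 and Plod2 over -0.030 to 0.10, and Plod2 was -0.0016 when scaled by library total. Depth limits the genes under about 1 RPKM, such as Thbs1, Col6a1 and Col18a1; intervals from reads cover counting error only.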

Other observations

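Promoter windows of 28 of the 39 genes were searched on both strands for 4 short motifs, none of which contains another. A gene was counted if any of its windows held the motif, whereas shares over all 32851 promoter windows count single windows. The 2 measures are therefore unlike, and no enrichment is read from them. GGGCGG, the GC box, was counted in 23 of 28 genes, 6 of the 7 that fell among them, and in 35.7% of all windows. CCAAT was counted in 10 of 28 genes and in 37.4% of all windows. For TGANTCA, the AP-1 site, it was 1 of 28 genes (Col6a1) and 7.81% of windows. For ACGTG, the hypoxia response core, it was 8 of 28 genes and 19.6% of windows. The windows of Col4a1 and Col4a2 share part of their sequence and are not independent.

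The letters GCAATTT had been picked in an earlier scan of 3′ UTRs for genes that fell in these same libraries, so their presence supports nothing here. Among the 26 tested genes they occur in the 3′ UTRs of Lamc1, Timp2, Fbln1 and P4ha1 (15.4%, against 7.85% of all tested genes with a 3′ UTR). In Lamc1 the GCAATTT and TGGTGCT matches start 50 bases apart.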
